A study of Mus musculus with 8 samples.

Results

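The miR-29 family was examined in mouse kidney as its 7 mature arms on the array: the guide arms mmu-miR-29a-3p, mmu-miR-29b-3p and mmu-miR-29c-3p, and the passenger arms mmu-miR-29a-5p, mmu-miR-29b-1-5p, mmu-miR-29b-2-5p and mmu-miR-29c-5p (written below without mmu, for mouse). They were chosen by name and are 7 of the 1881 mouse miRNAs for which the array carries probes. The data are 8 kidney samples from male C57BL/6 mice aged 9 weeks, each hybridised to 1 single-colour miRNA microarray. Of these, 4 came from mice with ischemia-reperfusion injury (IRI), a model of acute kidney injury in which the right kidney was removed and the left renal blood supply was clamped for 25 or 45 min, with harvest 12 or 24 h later. The 4 sham mice had a midline incision alone and kept both kidneys, so injury and nephrectomy cannot be told apart. No genetic change is given for either group. The labels do not tie a clamp time or a harvest time to a sample, nor do they state that the samples are separate animals, so each p-value reflects the spread among these 8 samples, which may be technical.

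MicroRNAs are short RNAs that lower the output of messenger RNAs, which they recognise mainly through the seed, bases 2 to 8 of the miRNA. The miR-29 guides are known for targeting messenger RNAs of the extracellular matrix, among them those of several collagens, elastin and fibrillin, and TGF-beta signalling is known to lower them in kidney fibrosis. Each precursor hairpin yields a guide arm, which is loaded into the silencing complex, and a passenger arm, most of which is degraded.

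The mature sequences show why the guides are treated as a family and the passenger arms are not. They are given from RefSeq (GRCm38.p6 tables, in which all 7 arms matched by name), with the seed in capitals.
miR-29a-3p: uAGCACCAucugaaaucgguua
miR-29b-3p: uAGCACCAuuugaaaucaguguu
miR-29c-3p: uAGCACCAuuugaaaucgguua
miR-29a-5p: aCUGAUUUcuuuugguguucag
miR-29b-1-5p: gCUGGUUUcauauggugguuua
miR-29b-2-5p: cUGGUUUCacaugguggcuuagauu
miR-29c-5p: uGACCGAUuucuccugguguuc
The 3 guides share the seed AGCACCA, which no other mature miRNA in the RefSeq table carried (0 of 1679 names). The 4 passenger arms have 4 different seeds. Counted from 1 at the 5′ end, miR-29a-3p and miR-29c-3p differ at 1 base, C10U. miR-29b-3p differs from miR-29c-3p by A18G, G21U and U22A over the 22 bases compared, and is 1 base longer.

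The family comes from a pair of loci. On mm9, the build named in the file headers, the array design lists the miR-29a-3p probe at chr6:31012716-31012734 on the minus strand. It lists the miR-29c-3p probe at chr1:196863795-196863815 on the plus strand. The miR-29b-3p probe is listed at both loci, at chr6:31013071-31013091 and chr1:196863287-196863307, since Mir29b-1 and Mir29b-2 give the same guide. Its signal therefore cannot be assigned to a chromosome. On chromosome 6 the listing puts miR-29a-3p above miR-29a-5p (31012676-31012696). RefSeq (GRCm38.p6) has the reverse order, with miR-29a-3p at 31062673-31062694 and miR-29a-5p at 31062711-31062732. The order of miR-29b-3p and miR-29b-1-5p is reversed too, so the listed chromosome 6 positions mark the locus and not the arm. In the RefSeq table Mir29b-2 and Mir29c overlap the long non-coding RNA gene A330023F24Rik, whereas Mir29a and Mir29b-1 overlap no other listed gene.

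The probes are complements of the miRNA, and those of miR-29a-3p and miR-29c-3p show how little separates the related guides. The letter opposite guide base 10 is in capitals.
miR-29a-3p probe: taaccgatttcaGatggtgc
miR-29c-3p probe: taaccgatttcaAatggtgct
miR-29b-3p probe: aacactgatttcaAatggtgc
Each miR-29a-3p probe has 1 mismatch to the miR-29c-3p guide and 4 to miR-29b-3p, and each miR-29c-3p probe has 1 mismatch to miR-29a-3p. How far these guides hybridise to each other's probes was not tested.

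All 8 arrays lay on 1 slide, with the sham arrays in slide row 1 and the IRI arrays in slide row 2, so row and group cannot be told apart. Each slide column held 1 array of either group. The sham arrays detected 327 to 379 miRNAs and the IRI arrays 393 to 447, and the 75th percentile of signal, over the 317 miRNAs detected on all 8 arrays, was 356 to 456 in sham and 445 to 562 in IRI. Probe signals were summed per miRNA and divided by that percentile, and the values are called scaled signals below. All 5 kidney tubule markers were tested. Of 4 miRNAs listed for other tissues, the brain miRNA miR-124-3p and the endocrine cell miRNA miR-375-3p were detected on no array. The remaining 2 were not absent: the muscle miRNA miR-1a-3p passed detection on all 8 arrays. At least 1 array also detected miR-122-5p, which did not enter the test. No 2 arrays held the same signals.

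The comparison of IRI with sham asked whether the injured kidney had more or less of each miR-29 arm. The 3 guides and the passenger arm miR-29c-5p had lower scaled signals in IRI, by 24.3% to 32.4%. Measured from the median change of all 379 tested miRNAs, their log2 changes were -0.29 to -0.45. From the median of the 317 miRNAs detected on all 8 arrays, as these 4 arms were, they were -0.21 to -0.38. The passenger arm miR-29b-1-5p had higher signal on some IRI arrays and was not called, and the other passenger arms were dim or undetected. Detection was read from the scanner software's flag. The guides and miR-29c-5p were detected on all 8 arrays, miR-29b-1-5p on 1 sham and 4 IRI arrays, miR-29a-5p on 1 sham and 3 IRI arrays, and miR-29b-2-5p on none. Of the 7 arms, 5 entered the test by being detected on every array of a group, miR-29b-1-5p only through the IRI arrays. A call is an adjusted p below 0.05 (limma over 379 miRNAs, Benjamini-Hochberg). Of the 7 arms 4 were called lower and 0 higher. Of all 379 miRNAs tested, 36.7% were called lower and 12.1% higher, and 42.9% of those detected on all 8 arrays were called lower.

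mmu-miR-29c-3p, the chromosome 1 guide, gave scaled signals of 4090, 3357, 3975 and 3286 on sham arrays 1, 2, 3 and 6. On IRI arrays 1, 2, 3 and 18 it gave 2690, 2604, 2146 and 2487. Every IRI array was below every sham array. Means with SD over 4 arrays were 3677 ± 414 for sham and 2482 ± 239 for IRI. In limma the log2 change, IRI minus sham, was -0.57 with an SE of 0.11 and an adjusted p of 0.00375.

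mmu-miR-29c-5p, the passenger arm cut from the same hairpin, fell alongside its guide at a much dimmer signal. Its sham signals were 80.9, 72.9, 83.1 and 68.2, and its IRI signals 55.1, 54.6, 45.9 and 53.9, in the same array order. The groups did not overlap. From 76.3 ± 6.92 in sham the mean fell to 52.4 ± 4.35 in IRI (SD over 4 arrays). Limma put the log2 change at -0.54, SE 0.09, adjusted p = 0.0025.

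mmu-miR-29b-3p, the guide shared by both loci, had sham signals of 4907, 3933, 4901 and 3708 and IRI signals of 3218, 3290, 2569 and 3314. The groups did not overlap, and the nearest arrays were sham 6 and IRI 18. Group means were 4362 ± 632 for sham and 3098 ± 355 for IRI (SD over 4 arrays). The log2 change was -0.49, SE 0.13, with an adjusted p of 0.015 in limma.

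mmu-miR-29a-3p, the chromosome 6 guide, had sham signals of 6363, 5246, 6279 and 4862 and IRI signals of 4530, 4566, 3508 and 4614. Sham 6 was only slightly above the 3 brighter IRI arrays, and IRI 3 lay well below them. Group means were 5687 ± 749 for sham and 4305 ± 532 for IRI (SD over 4 arrays). This is a log2 change of -0.40, SE 0.13, with an adjusted p of 0.0314 in limma. This call was the least secure of the 4. It ended without sham 1 (adjusted p = 0.0818), sham 3 (0.0859), IRI 2 (0.0509) or IRI 3 (0.0579), and with slide column as a block (0.0763, limma). It also ended with normexp background correction (-0.33, adjusted p = 0.0574, limma), where 42.0% of all tested miRNAs were called lower. The other 3 calls held without any 1 array, with adjusted p up to 0.0437 for miR-29b-3p. With slide column as a block, miR-29b-3p was just inside the threshold at 0.04996, and the adjusted p was 0.0167 for both miR-29c arms (limma), against 33.0% of all tested miRNAs called lower. Testing all 1881 miRNAs, of which 4.78% were called lower, kept the calls of both miR-29c arms and ended those of miR-29a-3p and miR-29b-3p. Over all miRNAs, 35.9% lay entirely lower in IRI, as these 4 arms did.

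**Figure D1:**
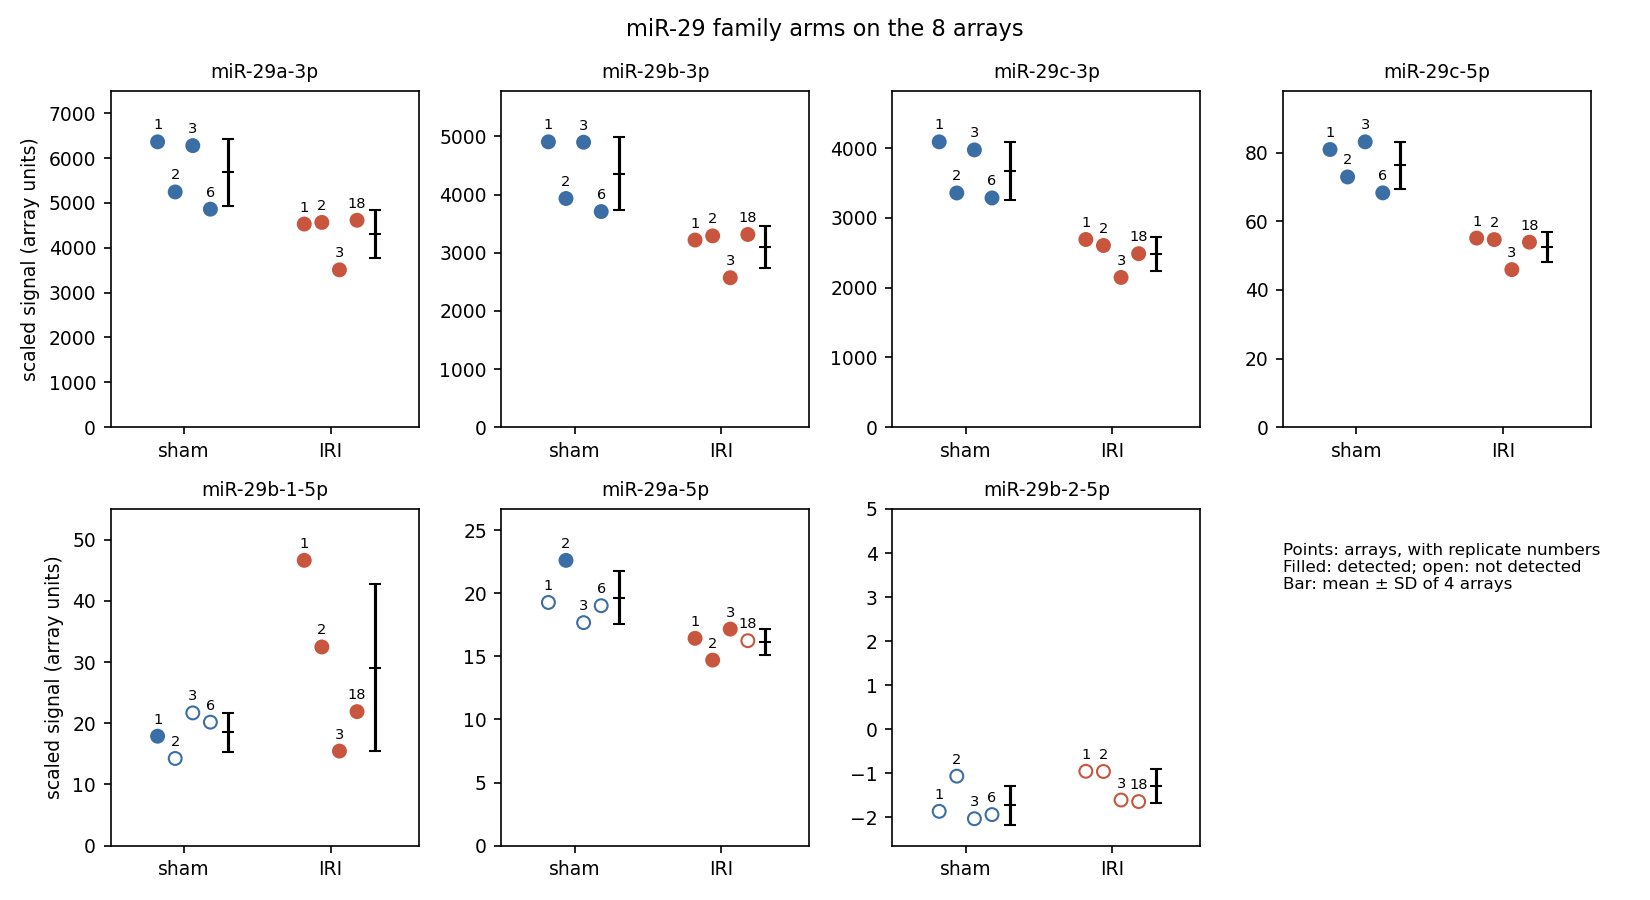
Scaled signal (array units, linear axes that differ between panels) of the 7 miR-29 arms on the 4 sham and 4 IRI arrays, with replicate numbers at the points, filled points for arrays on which the arm was detected, and bars for the mean ± SD (n = 4). The 3 guides and miR-29c-5p do not overlap between groups, miR-29b-1-5p spreads from 15.5 to 46.6 in IRI, and miR-29b-2-5p stays below 0.

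Within each slide column the 4 arms were lower in the IRI array than in the sham array, but by unequal amounts. For miR-29a-3p the log2 difference was -0.49 in column 1, -0.20 in column 2, -0.84 in column 3 and -0.08 in column 4. For miR-29c-3p it was -0.60, -0.37, -0.89 and -0.40. Column 3, which pairs IRI 3 with sham 3, gave the largest fall for each of the 4 arms. The smallest falls differed: column 4 for miR-29a-3p, miR-29b-3p (-0.16) and miR-29c-5p (-0.34), and column 2 for miR-29c-3p.

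The size of these falls depended on the reference against which the arrays were scaled. Before scaling, the groups overlapped for every guide: miR-29c-3p signals were 2610 to 4161 in sham and 2211 to 3267 in IRI. Without scaling its log2 change was -0.26 (adjusted p = 0.337), with the labelling spike-ins -0.24 (0.336) and with total signal -0.23 (0.107, limma), and 0 of the 7 arms were called under any of these 3 scalings. Under them the share of all tested miRNAs called lower was 0.264%, 0.528% and 4.49%. The median change of all 379 miRNAs moved as well, from -0.11 in the main scaling to 0.17 without scaling, 0.19 with the spike-ins and 0.20 with total signal. Measured from that median, miR-29c-3p lay between -0.45 and -0.43 under these 4 scalings and the percentile over all miRNAs. miR-29c-5p lay between -0.43 and -0.40, miR-29b-3p between -0.38 and -0.35, and miR-29a-3p between -0.29 and -0.26. These 5 scalings divide each array by 1 factor and shift nearly all miRNAs alike. The distance from the median was therefore bound to stay nearly the same and tests nothing. Quantile normalization moved the bright guides most: miR-29a-3p had a log2 change of 0.04, miR-29b-3p had -0.12 and miR-29c-3p -0.17, none called, whereas the dim miR-29c-5p stayed called at -0.62 (adjusted p = 0.00125, limma), where 33.5% of all tested miRNAs were called lower. From the median under quantile normalization the distances were 0.13 for miR-29a-3p, -0.03 for miR-29b-3p, -0.08 for miR-29c-3p and -0.53 for miR-29c-5p. The falls are therefore relative to the rest of the array. In whole kidney, fewer cells of a type and less RNA per cell cannot be told apart.

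**Figure D2:**
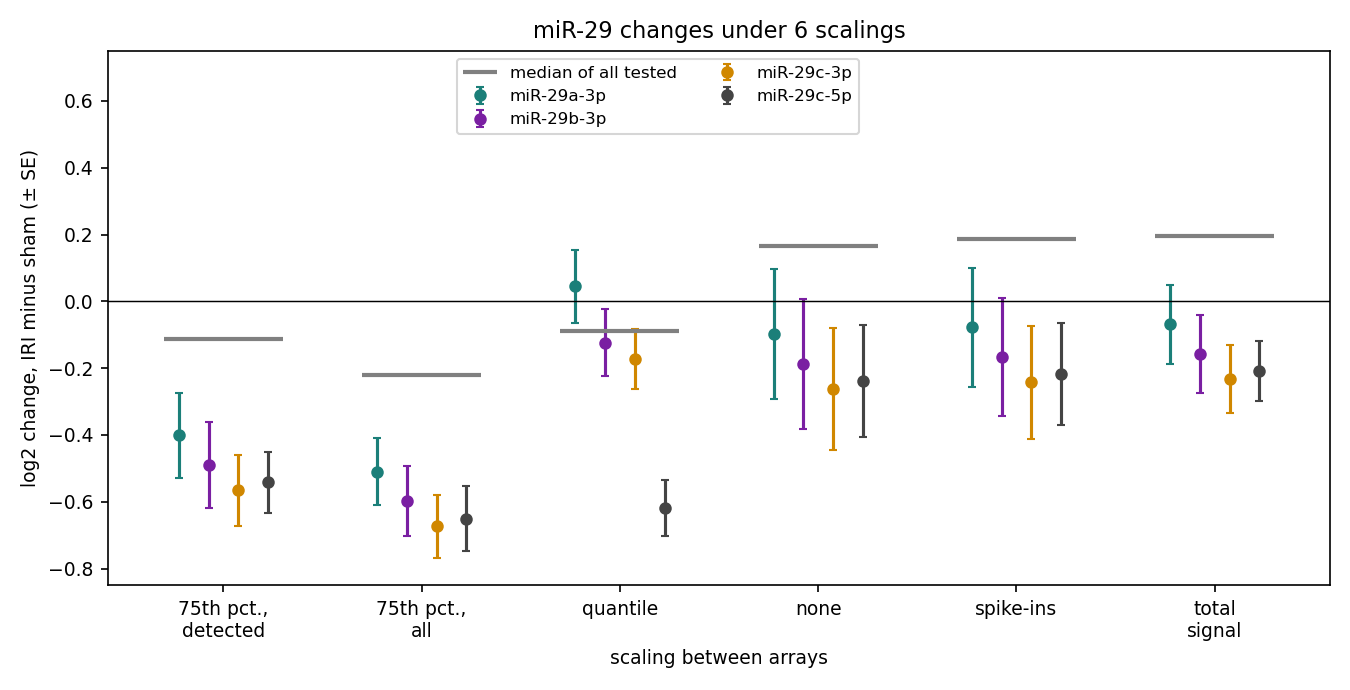
Log2 change of IRI against sham (± SE, 4 arrays per group) of the 3 guides and miR-29c-5p under 6 scalings between arrays, with a grey line at the median change of all 379 tested miRNAs. The arms stay below the grey line in 5 scalings, and with quantile normalization miR-29a-3p lies above 0 at 0.04.

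Among the 379 tested miRNAs ordered from the largest fall to the largest rise, miR-29c-3p stood at place 24, miR-29c-5p at 27, miR-29b-3p at 52 and miR-29a-3p at 87. These places depended on the processing. With quantile normalization they were 162 for miR-29c-3p, 18 for miR-29c-5p, 179 for miR-29b-3p and 231 for miR-29a-3p. With normexp background correction they were 12, 64, 26 and 52 in the same order. Normexp here adds 50 to every spot, which weighs most on dim arms such as miR-29c-5p. Scalings that divide each array by 1 factor shift nearly all miRNAs alike and hardly touch the order.

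**Figure D3:**
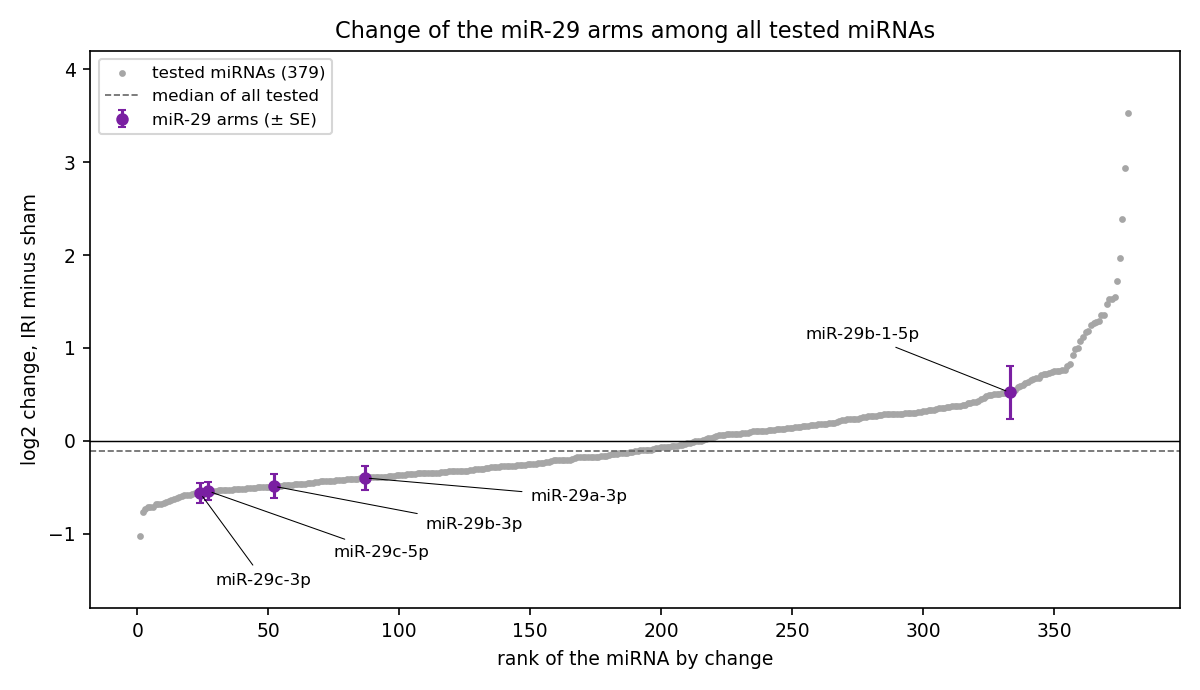
Log2 change of IRI against sham for the 379 tested miRNAs in order of change, with the 5 tested miR-29 arms in purple (± SE) and a dashed line at the median of -0.11. The 4 falling arms lie among the lowest 87, and the value drawn for miR-29b-1-5p rests on sham signals not above background.

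A comparison of arms within each array asked whether they fell by the same amount. The log2 difference of a pair within an array carries no scaling between arrays. Its level reflects the probes as well as the RNA, so only its shift between groups is read. The difference of miR-29a-3p minus miR-29c-3p was 0.64, 0.64, 0.66 and 0.57 on the sham arrays and 0.75, 0.81, 0.71 and 0.89 on the IRI arrays. Every IRI array was above every sham array. The mean shift was 0.16, toward a smaller fall of the miR-29a-3p signal than of the miR-29c-3p signal. These guides have probes of unlike length, 19 and 20 bases against 21 and 22. The part of probe length in the shifts between arms was not tested. Its exact permutation p was 0.0286, two-sided, the smallest that 35 splits allow, and 0.0857 after adjustment over the 6 pairs. For miR-29a-3p minus miR-29b-3p the difference rose from 0.38 ± 0.02 to 0.47 ± 0.02 (SD, n = 4; exact permutation p = 0.0286, adjusted 0.0857), again with no overlap. Neither shift passed the threshold after adjustment, which at this smallest p would take 4 pairs reaching it.

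The remaining pairs overlapped between groups. The shift was 0.14 for miR-29a-3p minus miR-29c-5p (exact permutation p = 0.0571, adjusted 0.114), 0.08 for miR-29b-3p minus miR-29c-3p (0.2, adjusted 0.3), and 0.05 for miR-29b-3p minus miR-29c-5p (0.343, adjusted 0.411). The guide and the passenger arm of miR-29c had the smallest shift. Their difference averaged 5.59 ± 0.06 on sham arrays and 5.57 ± 0.04 on IRI arrays (SD over 4 arrays), a shift of -0.02 (exact permutation p = 0.514, adjusted 0.514). A p above the threshold does not show that these arms changed alike.

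**Figure D4:**
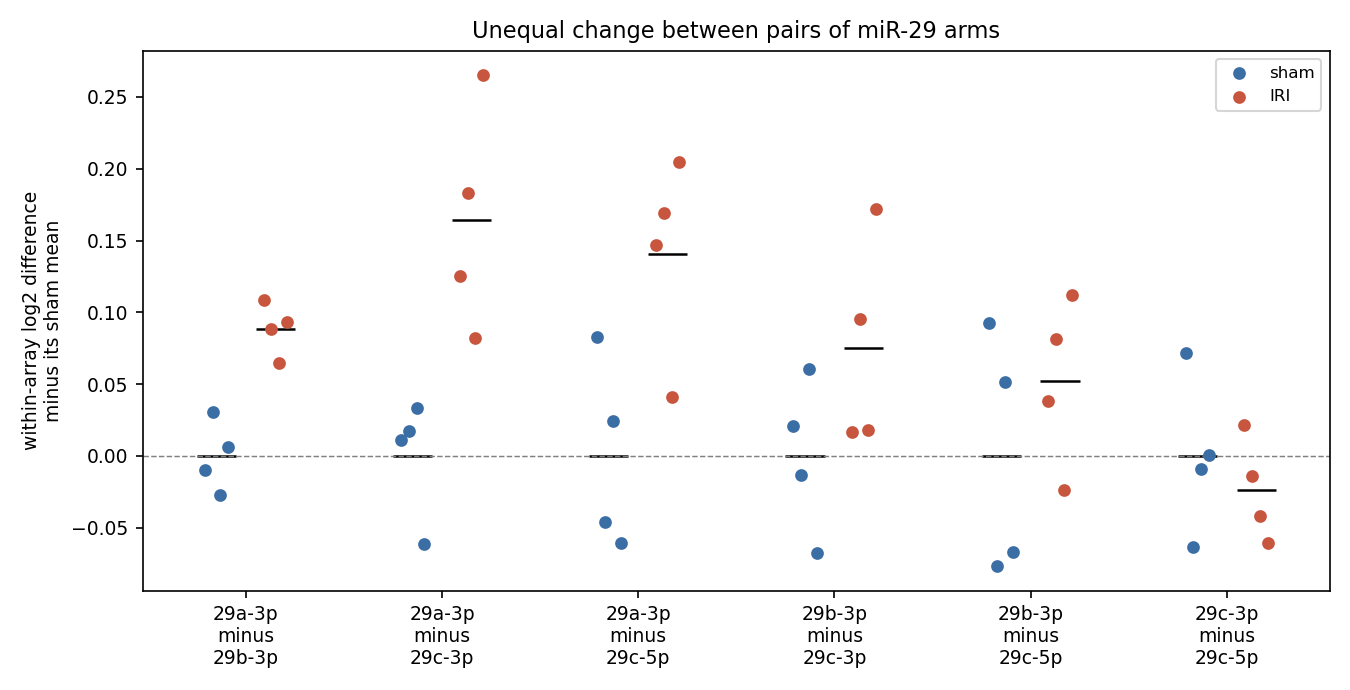
Within-array log2 difference of each pair of the 4 arms detected on all arrays, minus its sham mean, for 4 sham (blue) and 4 IRI (red) arrays, with black lines at the group means. The IRI points lie entirely above the sham points for miR-29a-3p minus miR-29b-3p (mean shift 0.09) and for miR-29a-3p minus miR-29c-3p (0.16), and overlap them in the other pairs.

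The individual probes of the guides and of miR-29c-5p all fell, though not by equal amounts. Each of the 3 guides and miR-29c-5p has 2 probes, each printed 15 times per array. The log2 changes were -0.34 and -0.43 for the miR-29a-3p probes of 19 and 20 bases, -0.44 and -0.50 for the miR-29b-3p probes of 20 and 21 bases, and -0.56 and -0.57 for the miR-29c-3p probes of 21 and 22 bases. The miR-29c-5p probes of 20 and 21 bases had -0.48 and -0.59. In each of these arms the longer probe fell more, though barely so for miR-29c-3p. The 20-base probes of miR-29a-3p and miR-29b-3p fell by nearly the same amount (-0.43 and -0.44). For each of these 8 probes the groups did not overlap. Replicate spots of a guide probe on 1 array varied by a median coefficient of variation of 2.91% to 6.52%, against 9.77% and 14.6% for the dim miR-29c-5p probes. 

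mmu-miR-29b-1-5p, the passenger arm of the chromosome 6 copy of miR-29b, was dim and not called. Its scaled signals were 17.9, 14.2, 21.7 and 20.2 on sham arrays and 46.6, 32.5, 15.5 and 21.9 on IRI arrays. IRI 1 and IRI 2 stood above all sham arrays, IRI 18 was at the upper sham level, and IRI 3 was within the sham range. Limma gave a log2 change of 0.52, SE 0.29, adjusted p = 0.169. It was computed with a floor of 17.3 under the dimmest values and so carries no measured size. Without IRI 3 the adjusted p was 0.0475 (0.73, limma), where 16.4% of all miRNAs were called higher, and on the authors' deposited value table it was 0.0132 (3.34, limma), where 15.6% were. With normexp background correction the value was -0.13. That setting adds 50 to every spot before the probes are summed, a constant that weighs most on dim arms such as this. Its floor was 131. The arm entered the test only through the IRI arrays, and on the sham arrays 0 of its 30 spots were well above background, so neither a call nor a size is read from these values.

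The miR-29b-1-5p signal came from its longest probes. They differ only in how far they reach toward the 5′ end of the miRNA, and the bases that the shortest probe lacks are in capitals.
19-base probe: taaaccaccatatgaaacc
22-base probe: taaaccaccatatgaaaccAGC
On sham arrays the 22-base probe gave scaled signals of 9.79 to 11.4, and it gave 28.1, 21.0, 9.70 and 16.9 on IRI arrays 1, 2, 3 and 18. Of its 7 spots, 7, 7, 0 and 5 were well above background on those IRI arrays and 0 on each sham array. The 19-base probe stayed between -0.93 and 3.77 on all 8 arrays, with 0 spots well above background. Sham 1 and IRI 3 carried the software's detection flag for this arm with 0 of its 30 spots well above background.

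**Figure D5:**
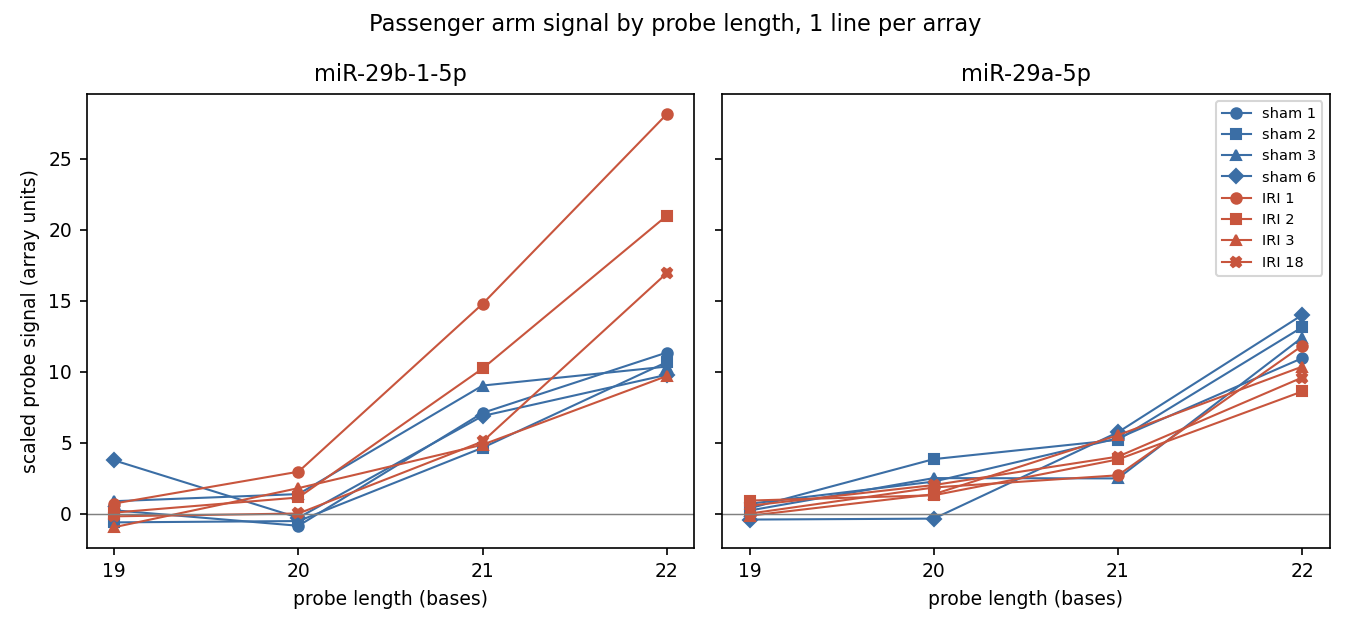
Scaled signal (array units) of the 4 probes of miR-29b-1-5p and of miR-29a-5p against probe length in bases, with 1 line per array (blue sham, red IRI). The longest probe gives the highest signal on every array, and the 22-base miR-29b-1-5p probe reaches 28.1 on IRI 1 while sham arrays stay at or below 11.4.

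miR-29a-5p and miR-29b-2-5p did not enter the test. miR-29a-5p, the passenger arm of miR-29a, had scaled signals of 19.3, 22.6, 17.7 and 19.0 in sham and 16.4, 14.7, 17.2 and 16.2 in IRI. The IRI values lay below the sham values, but at most 1 of its 30 spots on any array was well above background. miR-29b-2-5p, the passenger arm of the chromosome 1 copy of miR-29b, had signals from -2.04 to -0.96 on the 8 arrays and 0 spots above background, so no level was detectable.

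The miRNAs whose signal followed the guides most closely were named by Pearson correlation over the 8 arrays, which share a slide and differ by group, as a description with no test. Among 313 candidates detected on all arrays, miR-532-5p was nearest to miR-29a-3p (r = 0.94), followed by miR-219a-5p and miR-1839-5p (0.92 for both). For miR-29b-3p the nearest were miR-532-5p (0.97), miR-30a-5p and miR-1839-5p (0.94 for both). For miR-29c-3p they were miR-30a-5p, miR-532-5p and miR-200a-3p (0.99 for all 3). The guides themselves correlated at 0.96 to 0.99. With each group's mean removed, miR-532-5p remained nearest to miR-29a-3p and miR-29b-3p (0.98 for both), and miR-200a-3p, an epithelial miRNA, to miR-29c-3p (0.95). The next were miR-200a-3p (0.89) and miR-92a-3p (0.85) for miR-29a-3p, miR-200a-3p (0.88) and miR-30a-5p (0.85) for miR-29b-3p, and miR-30a-5p and miR-532-5p (0.93 for both) for miR-29c-3p. Since the guides were lower in IRI, a lower value is built into a choice by correlation over the 8 arrays, and these changes are a description. They were -0.30 for miR-532-5p, -0.42 for miR-30a-5p, -0.46 for miR-200a-3p, -0.51 for miR-219a-5p and -0.54 for miR-1839-5p. miR-92a-3p, with 0.15, was not called.

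Other miRNAs recalled as acting on TGF-beta signalling and fibrosis were set beside the family. These lists and the cell marker lists below were chosen with earlier results of these data known, so their counts are a description and no test. Of 18 tested miRNAs recalled as counteracting fibrosis, 15 were called lower, 0 higher, and 3 were not called. Their median log2 change was -0.45, against -0.11 over all 379, of which 36.7% were called lower. Over the 317 miRNAs detected on all 8 arrays the median was -0.19, and 42.9% were called lower. The largest falls in the list were those of miR-194-5p (0.71) and miR-101a-3p (0.67), while miR-19b-3p had 0.13 and miR-200c-3p 0.10, neither called. Without scaling 0 of the 18 were called and the median was -0.15. Of 6 tested miRNAs recalled as promoting fibrosis, 2 were called higher and 1 lower, and 3 were not called. Their median was -0.14, and 0.17 without scaling. miR-21a-5p, induced in injured kidney, rose by 1.47 (SE 0.16) and miR-34a-5p, a p53 target, fell by 0.55 (SE 0.11), both as log2 changes. miR-132-3p, the other called higher, was detected on just 1 sham array and entered the test only through the IRI arrays, so nothing is read from its call, and miR-199a-5p had -0.39 and was not called. Without scaling miR-21a-5p stayed called higher, against 14.0% of all tested miRNAs, and miR-34a-5p was not called (-0.25).

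Markers of other cells moved with the groups too. All 5 kidney tubule markers were called lower (median -0.47), led by miR-194-5p and miR-192-5p (fell by 0.69), against 36.7% of all tested miRNAs, with a summed scaled signal of 17412 to 20068 in sham and 12614 to 14273 in IRI. Of the 5 fibroblast and mural markers 2 were lower, miR-145a-5p (fell by 0.53) and miR-143-3p (fell by 0.43), a share near that of all tested miRNAs. Both endothelial markers were lower, miR-126a-5p (-0.37) and miR-126a-3p (-0.32). Of all miRNAs detected on all 8 arrays, as both were, 42.9% were called lower. Without scaling 0 of these 12 markers were called, and the medians of the 3 lists were -0.17, -0.09 and -0.05. Of the tubule markers 4, and of the fibroblast and mural markers 2, also stand in the fibrosis lists. Of the 5 leukocyte markers, miR-223-3p was higher, against 12.1% of all tested miRNAs, and 4 were not called. Those 4 had -0.57 for miR-150-5p, -0.14 for miR-342-3p, 0.19 for miR-142a-5p and 0.29 for miR-142a-3p. The summed signal of the 5 was 569 to 731 in sham and 764 to 1115 in IRI. The red blood cell marker miR-451a was higher (3.53, SE 0.86), against 12.1% of all tested miRNAs. The other 2, miR-144-3p and miR-486a-5p, were detected on 2 and 0 sham arrays and entered the test only through the IRI arrays, so their calls are not read. The 3 had summed signals of 43.0 to 902 in sham and 2940 to 4087 in IRI. The muscle miRNA miR-1a-3p was called lower, against 36.7% of all tested miRNAs. Its IRI mean was near the floor, so its change of -0.54 carries no measured size. Without scaling miR-1a-3p was not called (-0.21). The part of these markers in the miR-29 changes was not tested.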

How the data were processed

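Total RNA from 30 mg of kidney was labelled with Cy3 (100 ng per sample) and run on an Agilent array, per the labels' protocols. Per the file headers, each deposited scanner file gives linear spot intensity after background subtraction, with no normalization between arrays (Agilent Feature Extraction 12.0.3.1). The deposited value table gives a linear ratio for each miRNA. Its making is not stated in the labels or headers. Over the 317 miRNAs detected on all 8 arrays it equals the total gene signal times 1 factor per array, after removal of a centre for each miRNA (SD of the log2 remainder at most 2.37e-06). Its direction is therefore known (higher is more signal), and the rules behind the factor and the centre are unknown. The column medians were 0.859, 1.23, 1.29 and 1.3 for sham 1, 2, 3 and 6, and 0.658, 0.646, 1.16 and 0.749 for IRI 1, 2, 3 and 18.

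Control spots and outlier spots (1422 to 1560 outliers of 56430 spots per array) were left out, and 0 were saturated. Processed signals were averaged per probe, summed per miRNA, divided by each array's 75th percentile over the 317 miRNAs, raised to a floor of 17.3 (5th percentile of detected signals) and taken to log2. Limma 3.58.1 in R 4.3.3 was fitted to the 379 miRNAs that all arrays of either group detected (two-sided, no covariate). Pairs of arms were compared with exact permutation tests. Precision is limited by the 4 arrays per group. Both tests were tested on simulated data. The text names the 7 arms, the 3 miRNAs most correlated with each guide by either measure, and up to 4 of each list. Members and lists were chosen with earlier results of these data known, and the lists were recalled, not taken from the files. Other scalings, background corrections, filters, floors, blocks and left-out arrays were tried. Normexp background correction used an offset of 50, added to every spot.

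Replicate numbers 1, 2 and 3 occur in both groups. The deviations of same-numbered arrays correlated at -0.16, -0.20 and 0.24, so the numbers were not taken as pairs. Arrays with different numbers correlated at -0.35 to 0.50, the highest being sham 6 with IRI 18, which share slide column 4. Replicates 1, 2 and 3 lay in slide columns 1, 2 and 3 in both groups, so number and column cannot be told apart there.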

Additional observations from a re-analysis of the deposited data

Results flagged for a closer look

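IRI 3 stood apart from the other 3 IRI arrays for 3 of the 5 tested arms. Its scaled signal was 3508 for miR-29a-3p, 2569 for miR-29b-3p and 45.9 for miR-29c-5p, each lower than the nearest array by 0.87 to 0.924 of the group's whole range, past Dixon's critical value for 4 samples. This held in 3 of 10 groups of 4 arrays examined, where chance marks about 1 in 20, and the 3 arms are not independent because they correlate across arrays. It holds for the scaled signal alone: without scaling IRI 3 was still the lowest IRI array, with a gap of 0.457, 0.434 and 0.292 of the range for these 3 arms, none past that value. For miR-29c-3p the scaled gap was 0.627 of the range and did not pass. The slide and scan are shared by all arrays, and the clamp and harvest times of IRI 3 are not given, so their part was not tested. Without IRI 3, miR-29a-3p had a log2 change of -0.31 (adjusted p = 0.0579, limma) and miR-29b-3p of -0.40 (adjusted p = 0.0309, limma).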

How the results depend on the processing

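Across 26 other settings for the guides and miR-29c-5p, the sign held in each except that of miR-29a-3p with quantile normalization (0.044). Without scaling the log2 changes of miR-29a-3p, miR-29b-3p, miR-29c-3p and miR-29c-5p were -0.10, -0.19, -0.26 and -0.24. With the labelling spike-ins they were -0.078, -0.17, -0.24 and -0.22, and with total signal -0.069, -0.16, -0.23 and -0.21. With each of these scalings 0 arms were called lower. With quantile normalization miR-29b-3p (-0.12) and miR-29c-3p (-0.17) lost their calls and 1 arm stayed called. When all 1881 miRNAs were tested, miR-29a-3p (-0.40, adjusted p = 0.246) and miR-29b-3p (-0.49, adjusted p = 0.133, limma) lost theirs and 2 arms stayed called. Testing more miRNAs adjusts over more p-values. miR-29a-3p also lost its call with normexp background correction (-0.33, adjusted p = 0.0574) and with slide column as a block (-0.40, adjusted p = 0.0763, limma). The cause of these losses was not tested.

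With replicate number as a block, on the 6 arrays that share a number, the changes of the 4 arms were -0.51, -0.60, -0.62 and -0.61 and 0 were called (adjusted p 0.0523 to 0.0942, limma). These 6 arrays fill slide columns 1, 2 and 3, so this block equals the slide column block without column 4. On the same 6 arrays without the block, chosen after seeing the data, the 4 arms stayed called. Over all miRNAs 50 were called lower and 17 higher with the block, against 121 and 37 on those 6 arrays without it. Leaving out each array in turn gave -0.47 to -0.31 for miR-29a-3p, -0.56 to -0.40 for miR-29b-3p, -0.61 to -0.50 for miR-29c-3p, -0.59 to -0.48 for miR-29c-5p and 0.27 to 0.73 for miR-29b-1-5p. It left 3 to 4 arms called lower and 0 to 1 called higher, with 30.0% to 37.5% of all tested miRNAs called lower and 9.5% to 16.4% higher. The value of miR-29b-1-5p was -0.13 with normexp, and 3.34 on the deposited value table, where it was the 1 arm past the threshold in that direction. It passed the detection filter only through the IRI arrays and was not above background in sham, so neither is read as a call or a size.

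Of the 6 pairs of arms, 0 were called in the main test and under 15 other settings. Sign-flip tests could not go below 0.125 over 4 slide columns, or below 0.25 over the shared replicate numbers. Neither of these settings could therefore call a pair. The difference of miR-29a-3p minus miR-29c-5p turned to -0.026 and that of miR-29b-3p minus miR-29c-5p to -0.11 with normexp. The constant that normexp adds to every spot weighs most on the dim miR-29c-5p. That of miR-29c-3p minus miR-29c-5p turned to 0.45 with quantile normalization, and ranged from -0.045 to 0.000287 when each array was left out. The shift of miR-29a-3p minus miR-29c-3p stayed between 0.11 and 0.22. Arms near the floor of 17.3 carry no measured size.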
